A study of Arabidopsis thaliana with 6 samples.

Results

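The 10 genes described here encode the seed storage proteins of Arabidopsis thaliana. They were taken by locus identifier and comprise 4 cruciferin-type genes (CRA1, CRU2, CRU3 and AT1G03890), 5 genes of 2S albumins (SESA1 to SESA5) and the vicilin-like gene PAP85. All 10 are listed among the 33602 genes of the count files and among the 25005 genes of the authors' deposited table. RNA came from whole seedlings aged 1 day, in 3 libraries of the wild type Col-0 and 3 of vil1-1. The label of vil1-1 says only that it is a mutant of vil1, and the sources used here do not describe the allele. Both genotypes had 3 days of cold in the dark at 4 °C, and grew on half-strength medium at 22 °C with 16 h of light and 8 h of dark. The design calls the libraries biological replicates, without saying whether each came from its own batch of seed or plate.

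Cruciferins and 2S albumins are the main protein reserves of the Arabidopsis embryo. They are made during seed maturation, when the transcription factors LEC1, LEC2, FUS3 and ABI3 and partner bZIP factors switch their genes on. The precursors are sorted to protein storage vacuoles, cut by vacuolar processing enzymes and stored. After germination proteases break them down to feed the seedling, and their genes are shut off. VIL1, a PHD finger protein also called VRN5, works with Polycomb repressive complex 2, which holds genes silent through methylation of histone H3.

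Library totals were low, at 46917 to 66546 counts, so that 1 count was worth 15 to 21.3 counts per 1000000 in the library (CPM). With 3 counts taken as the limit that a count of 0 allows, a gene at 0 could still stand at up to 45.1 to 63.9 CPM, depending on the library. Values per library therefore come from sparse counts, and fold changes mainly from the authors' deposited table, which gives no values per library. The sources used here do not say which counts that table was made from. It gives log2 fold changes other than 0 for genes with 0 counts in all 6 libraries, such as CRU2 (0.77). It was therefore not made from these counts alone. Its SE for CRA1 is 0.12 beside 13 counts in all, and its errors could not be checked against the count files. VIL1 itself had 0 counts in all 6 libraries, so the counts could not check the labels. The authors' deposited table lists it as lower in vil1-1, at -0.91 on the log2 scale (adjusted p = 0.000309). In RNA from whole seedlings, fewer cells that hold a transcript and less of it per cell cannot be told apart.

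All 10 storage protein genes had a positive log2 fold change of vil1-1 relative to Col-0 in the authors' deposited table, from 0.36 to 1.03. CRA1, CRU3, SESA1, SESA2 and SESA3 were higher in vil1-1, at a Benjamini-Hochberg adjusted p under 0.05 over all genes of that table, and none of the 10 was lower. Among all 25005 genes there, 3.56% were called higher and 3.58% lower. The median log2 fold change was 0.55 for the 10 genes and -0.05 for the whole of the authors' deposited table, where 44.9% of genes were positive. The 5 genes not called had a median of 0.53 in the authors' deposited table, beside 0.57 for the 5 called. For each of these 5 the 95% interval held both 0 and the median of the called genes. A difference of that size could thus be neither seen nor set aside at their depth. The SEs behind these intervals follow mean level closely. The intervals and calls may therefore leave out each gene's own spread between libraries.

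**Figure D1:**
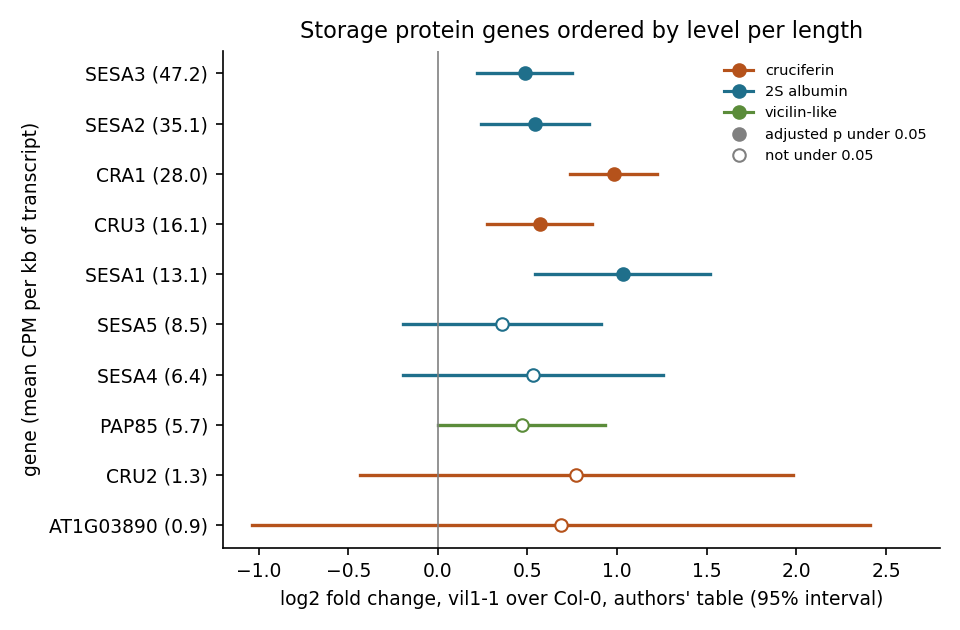
Log2 fold change of vil1-1 relative to Col-0 (x axis) for the 10 storage protein genes, ordered on the y axis by mean CPM per kb of transcript, with 95% intervals from the F scores of the authors' deposited table. Filled points passed an adjusted p of 0.05; every point lies to the right of 0, and the widest intervals are those of CRU2 and AT1G03890 at the bottom.

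Of the cruciferin-type genes, CRA1 (AT5G44120, chromosome 5, 17756238 to 17758336, minus strand, TAIR10.1) encodes cruciferin A. Its counts in replicates 1, 2 and 3 were 1, 1 and 2 for Col-0 against 4, 1 and 4 for vil1-1, the order used for every gene here. It was the 1 gene of the 10 with a count in every library, and vil1-1 replicate 2, at 20.3 CPM, lay between the lowest and the highest Col-0 library (31.0 CPM). By the authors' deposited table CRA1 was higher in vil1-1 by 0.98 on the log2 scale (SE 0.12, adjusted p = 2.69e-13), or 1.97-fold with a 95% interval of 1.67 to 2.33. CRU3 (AT4G28520, chromosome 4, 14087556 to 14089796, plus strand), which encodes cruciferin C, had 2, 0 and 0 counts for Col-0 against 1, 0 and 0 for vil1-1. The counts of CRU3 thus lie in replicate 1 of either genotype. In the authors' deposited table it was higher in vil1-1 by 0.57 on the log2 scale (SE 0.15, adjusted p = 0.0035), or 1.48-fold with a 95% interval of 1.21 to 1.81.

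CRU2 (AT1G03880, chromosome 1, 985751 to 988146, plus strand), which encodes cruciferin B, had 0 counts in all 6 libraries. Its log2 fold change in the authors' deposited table was 0.77 (SE 0.62, adjusted p = 0.597). The neighbouring AT1G03890 (chromosome 1, 989198 to 991020, plus strand), a cupin gene of the cruciferin type, lies 1051 bases further on with no gene between. It also had 0 counts throughout, and 0.69 in the authors' deposited table (SE 0.88, adjusted p = 0.709). At these errors a call would have needed a log2 fold change of 1.80 for CRU2 and 2.56 for AT1G03890, so their values say little about either direction.

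The 2S albumins are small, sulphur-rich storage proteins. SESA1, SESA2, SESA3 and SESA4 form a tandem row on the plus strand of chromosome 4, with gaps of 1309, 1720 and 1032 bases and no annotated gene between, whereas SESA5 lies on chromosome 5. SESA1 (AT4G27140, 13607329 to 13608031) had 0, 0 and 1 counts for Col-0 and none in a vil1-1 library. The authors' deposited table gives 1.03 on the log2 scale (SE 0.25, adjusted p = 0.00107), the largest value among the 10 genes, or 2.04-fold with a 95% interval of 1.46 to 2.87. The single count of SESA1 lies in Col-0 and bears on neither direction.

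SESA2 (AT4G27150, 13609341 to 13610075) had 3, 2 and 0 counts for Col-0 against 3, 0 and 5 for vil1-1, so that the genotypes overlap and each has a library at 0. In the authors' deposited table it was higher in vil1-1 by 0.54 (SE 0.15, adjusted p = 0.00969). SESA3 (AT4G27160, 13611796 to 13612563) had 0, 0 and 1 counts for Col-0 against 1, 0 and 1 for vil1-1. Its log2 fold change in the authors' deposited table was 0.48 (SE 0.14, adjusted p = 0.00802). SESA4 (AT4G27170, 13613596 to 13614283) and SESA5 (AT5G54740, 22238358 to 22239187, minus strand) had 0 counts in all 6 libraries. They had log2 fold changes of 0.53 (SE 0.37, adjusted p = 0.507) and 0.36 (SE 0.28, adjusted p = 0.59) in the authors' deposited table. A call would have needed 1.08 for SESA4 and 0.82 for SESA5.

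The albumin copies are alike enough that the counting can matter. Coding sequences of SESA2 and SESA3 were 94.1% identical, and the other pairs within the tandem row 82.6% to 90.1%, while SESA5 matched the other 4 at 68.7% to 70.1%. The longest run shared by the transcripts of SESA2 and SESA3 is shown because a read that falls within it cannot be placed on either gene. It lies in the coding part of both, at chr4:13609820-13609868 in SESA2 and chr4:13612239-13612287 in SESA3 (plus strand, TAIR10.1), and is 49 bases long.

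SESA2 and SESA3 shared run: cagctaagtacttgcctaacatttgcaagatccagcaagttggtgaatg

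No stretch of 50 bases of any of the 10 transcripts recurred elsewhere in the genome. The sources used here state neither the read length nor how reads with several matches were treated, so the split between SESA2 and SESA3 is uncertain. The cruciferin-type coding sequences were 62.5% to 76.4% identical, with shared runs of at most 26 bases. No annotated gene overlaps any of the 10 on either strand.

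PAP85 (AT3G22640, chromosome 3, 8011724 to 8013941, minus strand), a cupin gene of the vicilin type, had 0, 0 and 1 counts for Col-0 against 0, 1 and 1 for vil1-1. The genotypes overlap, with 1 count at most in any library. The authors' deposited table gives 0.47 on the log2 scale (SE 0.24, adjusted p = 0.296), with a 95% interval of -0.00 to 0.94. SESA1, at nearly the same mean level there (9.22 CPM, and 9.73 CPM for PAP85), was called at 1.03.

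Levels can be compared between genes only per length. Per kb of the longest RefSeq transcript, the mean levels in the authors' deposited table were 47.2 CPM for SESA3, 35.1 for SESA2, 28.0 for CRA1, 16.1 for CRU3 and 13.1 for SESA1. SESA5 followed at 8.47 CPM per kb, SESA4 at 6.41 and PAP85 at 5.73, and CRU2 and AT1G03890 came last at 1.30 and 0.94 in the authors' deposited table. Without length, CRU2 and AT1G03890 stood at 2.12 and 1.43 CPM. That is near the 0.687 CPM that DPBF2, RGE1 and TT2 have alike there. The part of such a floor in their levels was not tested. The 5 genes called were the 5 with the highest level per length. By mean CPM without length this does not hold, as PAP85 (9.73 CPM, not called) stood above SESA1 (9.22 CPM, called). The table gives no spread over libraries, so it does not show which neighbours in the order per length differ. Without length, the 10 genes summed to 174.6 CPM in the authors' deposited table, of which CRA1 made up 28.5% and CRA1, SESA3, CRU3 and SESA2 together 80.6%.

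**Figure D2:**
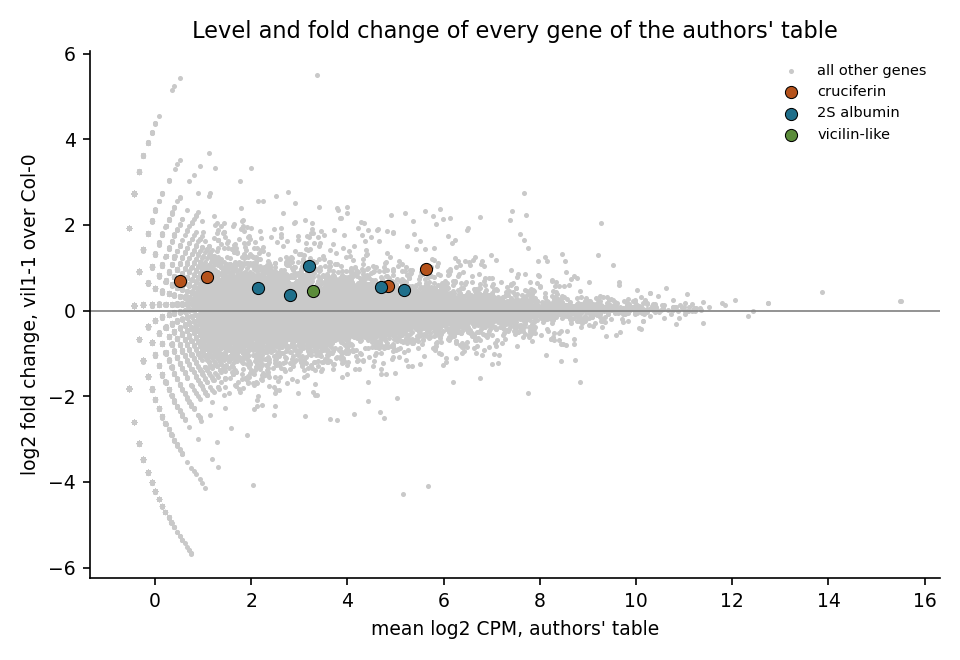
Mean log2 CPM (x axis) and log2 fold change of vil1-1 relative to Col-0 (y axis) of every gene in the authors' deposited table, with the 10 storage protein genes in colour by type. The coloured points lie above 0 at mean log2 CPM from 0.51 to 5.64, with fold changes of 0.36 to 1.03 inside the cloud of other genes. CRA1, SESA3, CRU3 and SESA2 stand at percentiles 76.2 to 86.8 of level in that table.

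In the count files the 10 genes together had 6, 3 and 5 counts for Col-0 against 9, 2 and 11 for vil1-1. That is 122.8, 45.1 and 77.5 CPM for Col-0, against 191.8, 40.5 and 173.8 CPM for vil1-1. Replicates 1 and 3 of vil1-1 were above all Col-0 libraries, and vil1-1 replicate 2 was below all of them. The mean was 81.8 ± 39.0 CPM for Col-0 against 135.4 ± 82.6 CPM for vil1-1 (SD, n = 3 each), so the difference of 53.6 CPM was smaller than the spread within vil1-1. Without vil1-1 replicate 2 the difference was 101 CPM. It was 25.4 CPM without vil1-1 replicate 1, 34.4 CPM without vil1-1 replicate 3 and 35.3 CPM without Col-0 replicate 2.

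For the cruciferin-type genes the sum was 35.8 ± 23.6 CPM with Col-0 and 63.3 ± 43.2 CPM with vil1-1 (SD, n = 3 each). For the 2S albumins it was 40.8 ± 17.8 CPM with Col-0 and 60.0 ± 52.2 CPM with vil1-1 (SD, n = 3 each). Leaving out 1 library moved the cruciferin difference from 27.5 CPM to between 5.93 CPM (without vil1-1 replicate 1) and 49.1 CPM (without vil1-1 replicate 2), with 17.2 CPM without Col-0 replicate 2. It moved the albumin difference from 19.2 CPM to 1.82 CPM without vil1-1 replicate 3, 6.58 CPM without vil1-1 replicate 1, 29.5 CPM without Col-0 replicate 1 and 49.2 CPM without vil1-1 replicate 2. For both, vil1-1 replicate 2 fell within or below the Col-0 range, with 1 cruciferin count and no albumin count. The 95% exact binomial intervals of that library reached 112.9 CPM for cruciferins and 74.8 CPM for albumins. Both cover counting error only.

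**Figure D3:**
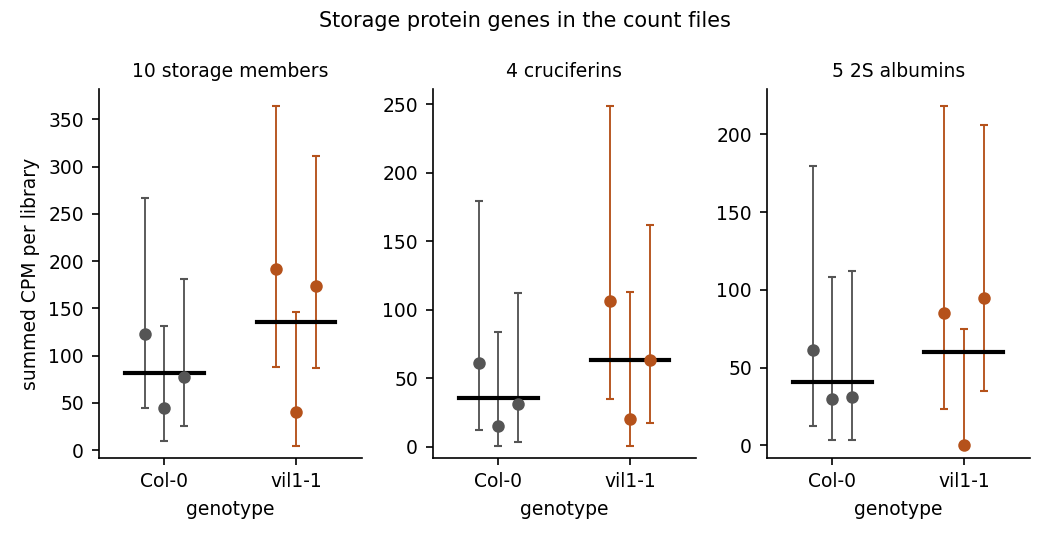
Summed CPM in each library (y axis) of all 10 storage protein genes, the 4 cruciferin-type genes and the 5 2S albumin genes, by genotype (x axis), with 95% exact binomial intervals and the mean of 3 libraries as a bar. In each panel vil1-1 replicate 2, the middle vil1-1 point, lies within or below the Col-0 libraries.

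No storage protein gene had enough counts to pass edgeR's filter, which left 942 genes, of which 3.72% were called. With no filter, edgeR's quasi-likelihood test on the 6 genes with a count called none, with adjusted p from 0.772 to 0.899, and none had an unadjusted p under 0.05. The edgeR fit with no filter gave CRA1 1.25 on the log2 scale (SE 0.89, edgeR adjusted p = 0.772) and SESA2 0.78 with an SE of 0.87. SESA3 and PAP85 were also positive, at 0.91 each (SE 1.70). CRU3 (-0.67, SE 1.71) and SESA1 (-1.82, SE 2.23) were negative, opposite to their values in the authors' deposited table. DESeq2, run on the 942 filtered genes, tested none of the 10. The edgeR errors of CRA1 and SESA2 are larger than the fold changes of all members but CRA1 and SESA1 in the authors' deposited table. The counts could not show changes of that size.

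The count files and the authors' deposited table did not rank the genes alike. At the mean CPM of the authors' deposited table, 59.3 counts would be expected for the 10 genes over the 6 libraries, and 36 were seen, a comparison that assumes that both rest on the same reads. CRA1 had 13 counts where 16.9 would be expected, and SESA2 had 13 where 8.77 would be. SESA3 had 3 counts with a 95% Poisson interval of 0.619 to 8.77, where 12.3 would be expected from the authors' deposited table. CRU3 also had 3 counts, where 9.80 would be expected. For these 2 genes the expected number lay outside the interval, and for the other 8 inside it. For CRU2, AT1G03890, SESA4 and SESA5, at 0 counts, the interval reached 3.69, above the 0.485 to 2.39 expected. The share of all genes outside was not worked out. Other genes differed too. PDIL1-1, at 584.7 CPM in the authors' deposited table, had 1, 4 and 1 counts for Col-0 against 5, 2 and 11 for vil1-1. XERO1, at 43.2 CPM there, had 7, 5 and 6 against 13, 22 and 19. CRA1 and SESA2 held 26 of the 36 counts.

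Among the 1711 other genes with at least 30 counts, those whose CPM were divided over the 6 libraries most like the summed storage protein genes were AT3G54740, ERD1 and AT3G48185. The share of CPM that would have to move between libraries to match was 0.0826, 0.0861 and 0.0888 of the total, on 30 to 38 counts each. None of the 3 was called in the authors' deposited table (adjusted p = 0.433, 0.308 and 0.58).

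The stretches just upstream of the 5 albumin genes are shown because they share an arrangement of motifs. Each line gives the 120 bases before the annotated transcript start, 5′ to 3′ on the gene's strand, from TAIR10.1 with the RefSeq annotation. Capitals mark the RY motif CATGCA, the element that the B3 factors ABI3, FUS3 and LEC2 are known to bind, and the core ACGTG of the abscisic acid response element, which bZIP factors bind. Both were searched on both strands, and matches may overlap, so that CACGTG, the G-box, holds the core on either strand.

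SESA1, chr4:13607209-13607328, plus strand: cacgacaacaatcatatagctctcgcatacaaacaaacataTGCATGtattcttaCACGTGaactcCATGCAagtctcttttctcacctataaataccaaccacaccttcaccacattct
SESA2, chr4:13609221-13609340, plus strand: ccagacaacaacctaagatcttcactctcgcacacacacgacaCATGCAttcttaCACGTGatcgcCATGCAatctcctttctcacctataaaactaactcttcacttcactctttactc
SESA3, chr4:13611676-13611795, plus strand: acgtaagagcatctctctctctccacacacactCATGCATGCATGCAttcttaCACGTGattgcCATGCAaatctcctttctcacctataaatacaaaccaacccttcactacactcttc
SESA4, chr4:13613476-13613595, plus strand: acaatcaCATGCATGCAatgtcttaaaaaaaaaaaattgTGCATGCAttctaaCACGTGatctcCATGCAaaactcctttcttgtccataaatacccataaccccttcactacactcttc
SESA5, chr5:22239188-22239307, minus strand: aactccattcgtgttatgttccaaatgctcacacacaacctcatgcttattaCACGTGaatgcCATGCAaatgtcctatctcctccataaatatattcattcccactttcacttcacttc

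In each of the 5 lines a G-box begins 65 to 68 bases before the start and is followed, after 5 other bases, by an RY motif. The joint pattern, CACGTG, 5 bases of any kind and CATGCA on either strand, was looked for after it was seen in these lines. It was present in 9 of the 27443 windows of 250 bases upstream of nuclear protein-coding genes, or 0.0328%, and 5 of these 9 belong to the albumins. SESA4 and SESA5, which were not called in the authors' deposited table, carry it like the 3 that were.

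The cruciferin-type genes and PAP85 lack that joint pattern. The 250 bases upstream of CRA1 and CRU3, the called members of this type, are shown for comparison.

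CRA1, chr5:17758337-17758586, minus strand: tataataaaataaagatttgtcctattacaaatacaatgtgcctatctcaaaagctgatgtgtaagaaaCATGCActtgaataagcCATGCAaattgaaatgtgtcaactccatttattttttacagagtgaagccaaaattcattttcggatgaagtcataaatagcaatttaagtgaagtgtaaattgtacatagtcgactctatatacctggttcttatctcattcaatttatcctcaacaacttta
CRU3, chr4:14087306-14087555, plus strand: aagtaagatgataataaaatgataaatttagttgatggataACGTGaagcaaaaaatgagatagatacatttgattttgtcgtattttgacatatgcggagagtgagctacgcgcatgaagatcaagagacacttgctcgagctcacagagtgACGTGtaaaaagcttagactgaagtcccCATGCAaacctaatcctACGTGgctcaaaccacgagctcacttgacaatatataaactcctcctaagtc

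CRA1, the cruciferin gene with the larger fold change in the authors' deposited table, has 2 RY motifs and no ACGTG in this window, and CRU3 has 1 RY motif and 3 matches to ACGTG. Over the 10 genes, 9 windows of 250 bases held an RY motif, beside 8.43% of all 27443 windows. CRU2 was the exception. The core ACGTG was in 6 of the 10 windows, beside 22.9% of all, and the G-box in 5, beside 6.49%. Matches per window ran from 0 to 7 for the RY motif, with 7 at SESA3 and 6 at SESA4, where overlapping matches on the 2 strands each count. A match is a description of these letters and not of a bound site.

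**Figure D4:**
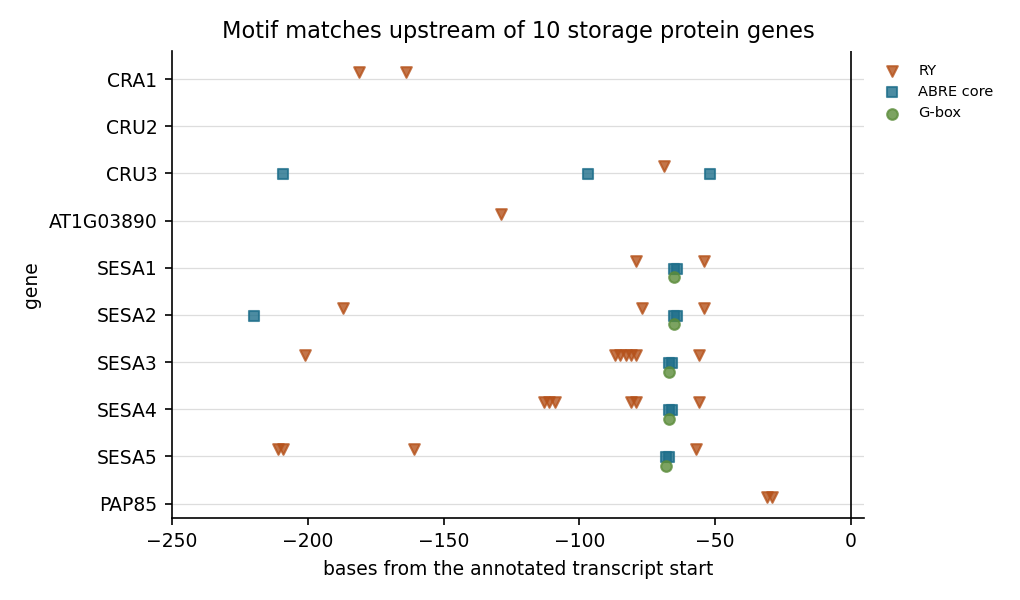
Matches to the RY motif, the core of the abscisic acid response element (ABRE core) and the G-box (symbols) in the 250 bases before the annotated transcript start (x axis, bases) of the 10 storage protein genes (y axis). In the 5 albumin genes the G-box and the last RY motif stand at nearly the same distance, 65 to 68 and 54 to 57 bases before the start.

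Regulators of the maturation programme were taken from a list of 13 activators and 5 repressors. BZIP53, a known partner in albumin gene activation, had 0 counts in every library and is not in the authors' deposited table. Of the 12 activators there, 3 were called higher and none lower, with a median log2 fold change of 0.63. Among the 9 not called, DPBF2 (1.93), LEC1 (1.42) and NF-YB6 (0.91) stood at 0.687 to 0.845 CPM with SEs of 1.67 to 2.15. BZIP25, WRI1, BZO2H1 and EEL, at 3.22 to 22.5 CPM, had -0.10 to 0.44. ABI3, a B3 factor that binds the RY motif, had 4, 7 and 6 counts for Col-0 against 5, 9 and 20 for vil1-1, and 1.20 on the log2 scale (SE 0.12, adjusted p = 4.80e-21) in the authors' deposited table. The counts of ABI3 overlap between genotypes, with vil1-1 replicate 3 above the rest. ABI4 (0.90) and ABI5 (0.82) were the other 2 called there. LEC1, LEC2 and FUS3 had no count in any library, and log2 fold changes of 1.42, -0.36 and -0.04 in the authors' deposited table at mean levels of 0.845 to 1.32 CPM (adjusted p = 0.682 to 0.985). Of the repressors none was called, and the authors' deposited table gives -0.05 (adjusted p = 0.883) for VAL1 (HSI2), the B3 protein that also recognises the RY motif and holds seed genes off.

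Of 15 genes in a list for the processing and sorting of storage proteins, the authors' deposited table had 3 called higher and 1 called lower. The median of the 15 was 0.05. Whether each of them acts on cruciferins or albumins was not measured. BETA-VPE, the vacuolar processing enzyme that cuts storage protein precursors in seeds, had 0, 3 and 2 counts for Col-0 against 4, 5 and 3 for vil1-1. By the authors' deposited table it was higher by 1.43 (SE 0.13, adjusted p = 2.30e-27), a larger fold change than that of any storage protein gene. GAMMA-VPE, the vegetative form, had 6, 16 and 8 counts for Col-0 against 1, 4 and 10 for vil1-1, and was lower at -0.88 (adjusted p = 5.65e-10) in the authors' deposited table. DELTA-VPE (0.64) and the aspartic protease gene AT1G62290 (0.93) were the other 2 called higher there. The vacuolar sorting receptor genes VSR1, VSR3 and VSR4 had 0.26, -0.09 and 0.11 in the authors' deposited table, and none was called.

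Papain-type proteases are a mixed class, some of which degrade stored protein after germination. Of 12 such genes, the authors' deposited table had 2 called higher and 5 called lower, and their median was -0.53. The 2 higher were AT4G01610 (0.34) and AT1G02305 (0.36). RD21B had 61, 57 and 60 counts for Col-0 against 23, 23 and 33 for vil1-1, so that the genotypes do not overlap. The counts gave -0.98 (SE 0.22, edgeR adjusted p = 0.00248), called lower, as was its -0.78 in the authors' deposited table. AT1G29090 was called lower too, with -1.52 from the counts (edgeR adjusted p = 0.00372) while the authors' deposited table gives -1.66. RD21A was not called in the counts (-0.61, edgeR adjusted p = 0.139). It (-0.59) and CEP3 (-1.09) were also called lower in the authors' deposited table, and CP1, a protease gene of germinating seedlings, was not called, at -0.02. Which of these proteins act on cruciferins or albumins was not measured.

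Other seed maturation genes were read beside the 10, whose median was 0.55 with 5 called higher. For 8 oil body genes, whose products coat the lipid stores of the seed, the authors' deposited table gives a median of 1.05 with 4 called higher and none lower. These were AT3G01570 (1.83), OLEO3 (1.29), OLEO2 (1.18) and OLEO1 (0.83), all oleosin genes. For 11 late embryogenesis abundant (LEA) genes, which protect drying cells, the median was 1.89 with 9 called higher and none lower. LEA4-5 (2.74), LEA7 (2.23), AT3G15670 (2.32) and LEA18 (2.12) had the smallest p-values of this list in the authors' deposited table. The difference between these lists and the storage protein genes was not tested. Of 5 other cupin genes, AT4G36700 (2.40), AT2G18540 (1.91) and AT2G28490 (1.81) were called higher in the authors' deposited table, each above every one of the 10 storage protein genes. These 3 had 0 to 2 counts over all 6 libraries, at mean levels of 9.48 to 13.8 CPM in the authors' deposited table, close to those of SESA1 and PAP85.

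**Figure D5:**
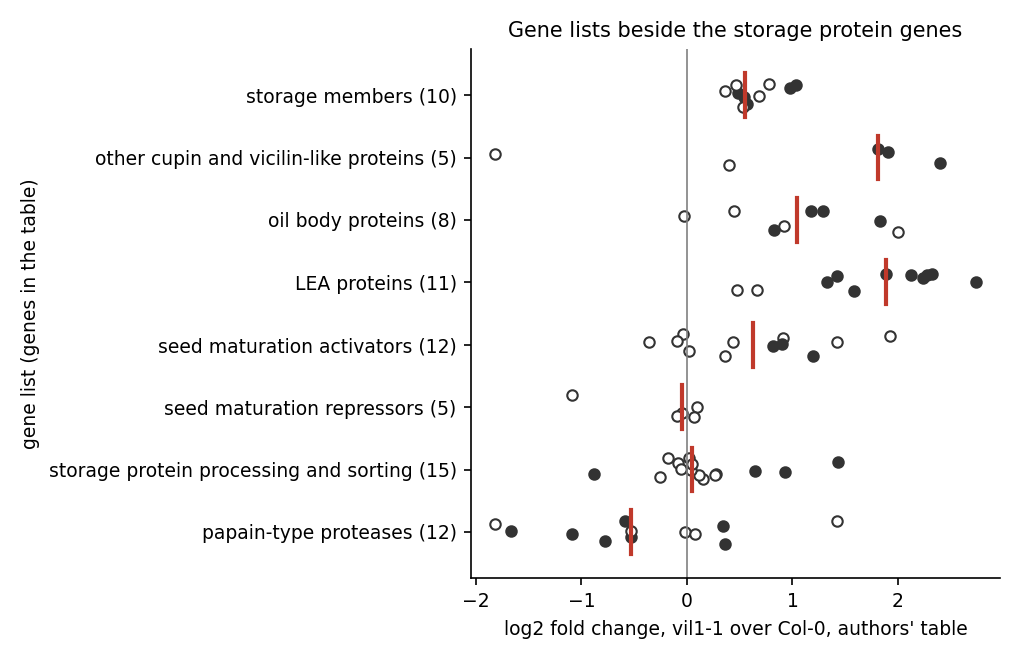
Log2 fold change of vil1-1 relative to Col-0 (x axis) in the authors' deposited table for each gene of 8 lists (y axis, with the number of genes in the table), filled where the adjusted p was under 0.05, with the list median as a red bar. The storage protein genes lie between 0.36 and 1.03 with a median of 0.55, and the LEA genes have a median of 1.89.

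Markers of the tissues around the embryo were read beside these values. Of 5 endosperm markers, MAN7 (1.14) and SUC5 (1.34) were called higher in the authors' deposited table, and EPR1, the most abundant of the 5 at 295.9 CPM, was not (0.14, adjusted p = 0.384). Summed over the 5 markers, counts gave 77.5 to 150.3 CPM in Col-0 and 63.9 to 182.4 CPM in vil1-1, and ZOU (RGE1) and AGL62 had no count. Of 9 seed coat markers 7 are in the authors' deposited table and none was called, with a median of -1.16. MUM2 (0.10, at 23.1 CPM) and the peroxidase gene AT3G50990 (0.84, at 1.06 CPM) had the highest levels among these 7. Of the 7, 4, TT10, TT2, TT16 and TT8, had negative values of -3.09 to -1.16 in the authors' deposited table. These 4 stood at 0.687 to 0.898 CPM with SEs of 1.59 to 2.19, so their direction was not resolved. The median is the value of TT8. In the counts the 9 markers summed to 0 to 31.0 CPM in Col-0 and 0 to 42.6 CPM in vil1-1. TT10, BAN, TT12, TT2, TT16 and TT1 were at 0 counts throughout. The part of the endosperm in the values of the storage protein genes was not tested.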

How the data were processed

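RNA of 3 Col-0 and 3 vil1-1 libraries was analysed from the deposited files. The submitters' processing notes list Bowtie2, featureCounts and edgeR, and TAIR10 as the build, with no versions or order. For each library the authors deposited raw counts of reads by gene. The authors' deposited table lists for each gene, per the file headers, its log2 fold change, average log2 CPM, F (a score) and p-value. Adjusted p-values quoted from it are Benjamini-Hochberg values computed here over its 25005 genes. Its standard errors were approximated as the size of the log2 fold change over the root of F, and the 95% intervals treat them as normal. Among 24290 genes with F under 20, its p-values lay within 0.00195 in log10 of those from chi-square with 1 degree of freedom. Such p-values make no allowance for the small number of libraries. SEs were alike at like mean levels: 0.123 for CRA1 at 49.7 CPM, 0.126 for BETA-VPE at 49.0 and 0.123 for VSR1 at 46.7. The intervals may therefore not hold each gene's own spread between libraries.

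Counts were tested with edgeR 4.0.16 (R 4.3.3): quasi-likelihood F test, TMM, default filter on low counts, genotype as the only term, Benjamini-Hochberg adjusted p under 0.05. The same code was checked on 3 simulated data sets. CPM are counts scaled to a library total of 1000000. Alternatives were DESeq2 1.42.0, RLE factors, other filters, a replicate block and leaving out each library. P-values over libraries measure only the spread between these samples, which may be technical.

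Gene positions, transcripts and upstream windows came from the RefSeq annotation of TAIR10.1, in which all 10 identifiers matched. Identities come from global alignments of coding sequences (Biopython 1.88). Named genes were all 10 members, ABI3, LEC1, LEC2, FUS3, VAL1 and BZIP53, up to 4 called genes per list (smallest p first), and the 3 genes most like the summed members over libraries. Any further gene was picked with its values in view. Members and lists were chosen with earlier results of these data known.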

Additional observations from a re-analysis of the deposited data

How the results depend on the processing

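With Bonferroni adjustment 1 storage protein gene, CRA1, was called in the authors' deposited table, and with a log2 fold change of at least 1 as well, 1 gene, SESA1. Adjusted over genes with a mean log2 CPM above 0, 5 were called. The share of all genes called under these settings was not worked out, so the numbers of members cannot be set against it. In the counts none of the 10 was called under any of the 11 alternatives, of which only those with no filter (6 genes) and with CPM above 1 in at least 3 libraries (4 genes) tested any. Over all genes edgeR called 35, DESeq2 8, edgeR with no filter 21, and edgeR with 1 library left out 19 to 36, the lowest without vil1-1 replicate 2. With the replicate block 35 were called. Same-numbered libraries had deviations correlated at 0.0791, -0.0332 and 0.0187, so the numbers were not taken to pair them. The difference in summed CPM of the 10 genes ran from 19.5 (without CRA1) to 101 (without vil1-1 replicate 2). That of the cruciferin-type genes was 27.5 CPM and turned to -6.54 CPM without CRA1, and that of the albumins was 19.2 CPM and 2.04 CPM without SESA2. The cause of these shifts was not tested. Log2 fold changes of single members had no value in the filtered fit. Depth limits the count files throughout.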

Other observations

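Outside the albumins, the joint pattern of G-box and RY motif stood upstream of AT1G54860, AT2G28490, AT2G38610 and PSB28. Only at PSB28 did it lie on the gene's strand, as at the albumins. At AT1G54860, AT2G28490 and AT2G38610 it lay on the opposite strand, so that the RY motif comes before the G-box. AT2G28490 is also 1 of the other cupin genes described above. In the authors' deposited table AT2G28490, a cupin gene, stood at 1.81 on the log2 scale (adjusted p = 2.67e-10) and AT2G38610, which encodes a KH domain protein, 0.51 (adjusted p = 0.0125). AT1G54860 had -1.01 (adjusted p = 0.58) and PSB28, of photosystem II, -0.22 (adjusted p = 0.0861) there.

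The RY motif was in the upstream window of all 8 oil body genes, of 3 of the 11 LEA genes and of 2 of the 5 other cupin genes, against 9 of the 10 storage protein genes. The core ACGTG was in 5 of the 8 oil body windows, 9 of the 11 LEA windows and all 5 of the other cupin windows. Among the storage protein genes it was in 6 of the 10. These are counts over few genes, with no test of a difference between lists.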
